A study of Mus musculus with 5 samples.

Results

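Cytochrome P450 enzymes were represented by 63 genes of the 12393 named on the array, taken as every probe set annotated to a single gene whose symbol begins with Cyp and a digit. Where a gene had several such probe sets (12 of the 63), the one with the highest mean signal over the 5 arrays stood for it. The series is a dilution of total RNA pooled from whole C57BL/6 mice killed on day 1 with total RNA pooled from the colon of C57BL/6 mice 8 weeks old. Each array received 10 ng of a mix in which colon made up 0%, 25%, 50%, 75% or 100% of the RNA, amplified in 2 rounds with T7 polymerase, with 1 array per mix and no replicate. Each pool came from several animals, no treatment or engineered allele is named, and tissue and age differ together between the pools and cannot be told apart.

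P450 enzymes are haem proteins that use oxygen, and electrons passed on by a reductase, to hydroxylate or epoxidise their substrates. Families 1 to 3 act mainly on drugs, plant compounds and other foreign chemicals and are best known from liver, although the intestinal lining carries its own set. Family 4 oxidises fatty acids and their signalling derivatives, and the remaining families each hold few enzymes with fixed roles in cholesterol, bile acid, steroid hormone, retinoid and vitamin D metabolism. Many mouse P450 genes lie in tandem clusters of near-identical copies, so a probe set can also bind the message of a neighbouring gene, which was not tested here.

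The stretches upstream of 4 members with large differences between the undiluted RNAs are printed first, because 2 of them, Cyp2c55 and Cyp2c65, are adjacent members of a gene cluster that were both far higher in colon. Cyp4f14 was also higher in colon, and Cyp3a11 was the member with the largest fall. Each run is the 250 bases before the RefSeq gene start (build GRCm38.p6), 5′ to 3′ on the strand of the gene, for Cyp2c55 at chr19:39006769-39007018 (plus strand), Cyp2c65 at chr19:39060756-39061005 (plus strand), Cyp4f14 at chr17:32917357-32917606 (minus strand, the first of 4 starts listed) and Cyp3a11 at chr5:145879855-145880104 (minus strand). Capitals mark any of the 5 motifs searched on both strands.
Cyp2c55: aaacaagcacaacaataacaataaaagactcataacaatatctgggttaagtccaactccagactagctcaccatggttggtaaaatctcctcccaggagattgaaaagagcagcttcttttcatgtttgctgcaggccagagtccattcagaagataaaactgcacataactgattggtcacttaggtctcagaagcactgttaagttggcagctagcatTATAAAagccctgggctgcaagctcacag
Cyp2c65: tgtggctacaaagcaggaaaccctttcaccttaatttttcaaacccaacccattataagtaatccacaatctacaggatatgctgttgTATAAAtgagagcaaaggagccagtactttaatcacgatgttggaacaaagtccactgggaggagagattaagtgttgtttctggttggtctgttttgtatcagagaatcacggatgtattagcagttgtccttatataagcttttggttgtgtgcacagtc
Cyp4f14: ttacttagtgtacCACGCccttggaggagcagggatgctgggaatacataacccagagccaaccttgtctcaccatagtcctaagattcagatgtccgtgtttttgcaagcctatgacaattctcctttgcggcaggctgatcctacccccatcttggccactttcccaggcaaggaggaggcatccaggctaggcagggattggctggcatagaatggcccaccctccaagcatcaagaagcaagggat
Cyp3a11: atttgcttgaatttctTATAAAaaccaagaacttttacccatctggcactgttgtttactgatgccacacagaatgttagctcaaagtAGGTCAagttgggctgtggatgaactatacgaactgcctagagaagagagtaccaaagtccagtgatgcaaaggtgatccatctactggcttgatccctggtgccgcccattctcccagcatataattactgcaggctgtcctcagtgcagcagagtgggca

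The motifs were TATAAA (the TATA box), AGGTCA (a half-site of nuclear receptors), GCGTG (the core bound by the aryl hydrocarbon receptor), TTTATG (of the kind bound by Cdx factors) and GTTAAT (a half-site of Hnf1). A promoter was listed for 46 of the 63 members. Each member was counted by its first listed start, while the share over all promoters counts every start listed, several for some genes. TATAAA occurred in 17 of these 46 promoters, while 12.4% of all 32851 promoters of the same length held it. AGGTCA occurred in 11 of 46 (14.0% of all promoters), GCGTG in 11 (28.2%), TTTATG in 7 (10.8%) and GTTAAT in 2 (6.43%). The Cyp2c55, Cyp2c65 and Cyp3a11 stretches each held 1 TATAAA, the Cyp3a11 stretch also 1 AGGTCA, and the Cyp4f14 stretch 1 GCGTG. By direction, TATAAA occurred in 0 of 7 promoters of members that rose and 4 of 11 of members that fell. AGGTCA occurred in 0 and 5 of these, GCGTG in 2 and 1, TTTATG in 0 and 3, and GTTAAT in 1 and 1. Cyp2c55, Cyp2c65 and Cyp4f14 did not pass and are in neither group. The Cyp2c55 and Cyp2c65 stretches were identical at 145 of 222 aligned bases (65.3%), and those of Cyp3a11 and Cyp3a25, both of which fell, at 142 of 216 (65.7%). Cyp3a11 and Cyp3a13, which moved in opposite directions, were identical at 145 of 225 (64.4%). The highest identity among the pairs aligned, 215 of 245 (87.8%), was that of Cyp2c37, which fell, and Cyp2c50, which did not pass. Unrelated promoters were not aligned. A match describes the letters only.

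Signals are given below as the authors' log2 values in order of rising colon share. A member "rose" or "fell" when limma's regression of its signal on the colon share gave an adjusted p under 0.05 (Benjamini-Hochberg over 22626 probe sets). Its slope, printed with the standard error (SE), is the log2 change fitted from 0% to 100% colon. The arrays had medians from 6.83 to 6.92. The tissue labels were borne out by marker genes: all 8 genes of colonocytes were higher in undiluted colon and all 10 genes of hepatocytes in undiluted whole mouse. Signals of different probe sets are not on a common scale, so changes were read within a probe set. The exceptions are rough: the choice of the brightest probe set, the array median, the background range given next and summed signals of marker genes. A summed signal is the log2 of the added intensities and is set mostly by its brightest genes. The 27 probe sets for bacterial spike transcripts read from 2.65 to 5.23, a rough guide to background. On no array did 6 members exceed that range, and neither did 9.9% of all genes.

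P450 genes moved in both directions. Of the 63 members, 9 rose (14.3%) and 14 fell (22.2%), and 40 did not pass. Of all 12393 genes, 9.8% rose and 14.5% fell. These shares are also the background for the counts by family, subfamily, role and list given below, which rest on few genes each. The median slope of the members was −0.07, against −0.01 for all genes. When the arrays were centred on their medians, 12 members rose and 14 fell, and the shares of all genes became 15.6% and 13.7%. Between the undiluted arrays, 7 members were at least 4-fold higher in colon (3.34% of all genes were) and 4 at least 4-fold higher in whole mouse (4.37% of all genes were). With 1 array a mix, the p-values measure technical spread and curvature around the fitted line, not the spread between mice.

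**Figure D1:**
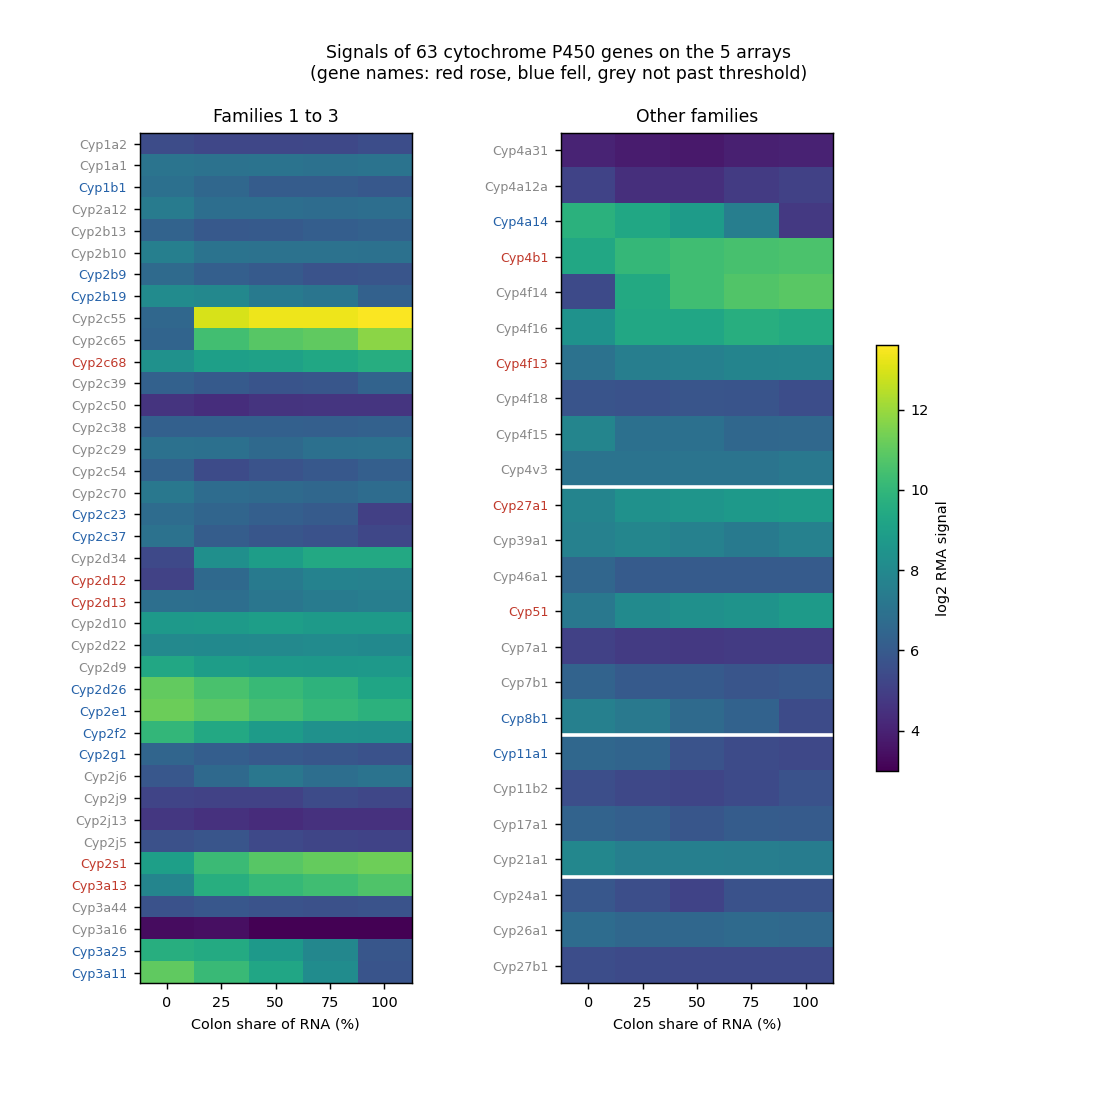
Heat map of the log2 signal of each of the 63 P450 genes (rows, ordered by subfamily within each block) on the 5 arrays (columns, colon share of RNA in %), with families 1 to 3 on the left and the fatty acid, sterol and bile acid, steroid hormone and vitamin enzymes from top to bottom on the right. Red gene names rose, blue names fell and grey names did not pass. Colours compare arrays within a gene, not genes with each other. Cyp2c55 goes from 6.56 to 13.55 and Cyp3a11 from 11.01 to 5.75, while the vitamin enzymes stay between 5.11 and 6.73.

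Leaving out an array cut the number of calls. Each such fit had fewer degrees of freedom, and the part of this in the drop was not tested. The number of members that rose was 2 without the whole mouse array and 4 without the 25% mixture. It was 0 by limma without the 50% mixture, the 75% mixture or the colon array, where 13, 11 and 13 members had an unadjusted p under 0.05 and a positive slope. The number that fell was 6, 10, 10, 7 and 5 in the same order of arrays. Of all genes, 2.48%, 6.47%, 2.31%, 1.03% and 0.815% rose and 5.86%, 9.87%, 8.40%, 6.87% and 5.10% fell in these fits. Cyp2d26, Cyp2e1, Cyp3a11 and Cyp8b1 passed whichever array was left out, Cyp2b19 and Cyp2f2 in 4 of the 5 fits, Cyp2c37 in 3, and Cyp11a1 and Cyp2g1 in 2. Cyp1b1, Cyp27a1, Cyp2c23, Cyp2c68, Cyp2d13, Cyp3a13 and Cyp51 passed in 1, and Cyp2b9, Cyp2d12, Cyp2s1, Cyp3a25, Cyp4a14, Cyp4b1 and Cyp4f13 in none. All 23 kept the sign of their slope in each of the 5 fits.

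In family 2, subfamily 2c held the widest differences. Cyp2c55, an enzyme known from intestine that oxidises arachidonic acid, read 6.56, 12.96, 13.32, 13.33 and 13.55. The whole mouse array alone was low, and the 25% mixture already stood within 0.59 log2 of undiluted colon. The undiluted arrays were 127-fold apart, yet the slope of 5.74 (SE 2.26) did not pass (adjusted p = 0.149). Cyp2c65, its neighbour and also known from gut, read 6.41, 10.38, 10.87, 10.99 and 11.74, a 40.2-fold difference between the undiluted arrays (slope 4.51, SE 1.28, adjusted p = 0.0693). Its probe set is of a type that the array's design marks as shared between transcripts. Cyp2c68 rose from 8.35 through 8.97, 9.07 and 9.30 to 9.61 (slope 1.14, SE 0.17, adjusted p = 0.0156).

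Other 2c genes were lower in colon or flat. Cyp2c37, an arachidonic acid epoxygenase of liver, fell with signals of 6.98, 6.11, 5.83, 5.65 and 5.24 (slope −1.58, SE 0.23, adjusted p = 0.0158). Cyp2c23, another epoxygenase, fell with signals of 6.76, 6.48, 6.19, 6.04 and 5.03 (slope −1.56, SE 0.28, adjusted p = 0.0245). Its lowest value was that of undiluted colon, 1.01 log2 below the 75% mixture. That value lay within the range of the spike probe sets, and the probe set is of the same shared type as that of Cyp2c65. In Cyp2c70, which makes the muricholic bile acids of rodents, the signal was 7.24 in whole mouse and 6.76 in colon without passing (adjusted p = 0.238). Cyp2c29, Cyp2c38, Cyp2c39, Cyp2c50 and Cyp2c54 differed by at most 0.12 log2 between the undiluted arrays, and none of them passed. Cyp2c54 was lowest in a mixture, with 5.40 at 25% colon between 6.33 in whole mouse and 6.21 in colon, and it rose when the whole mouse array was left out (adjusted p = 0.0352 by limma).

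Subfamily 2d also went both ways. Cyp2d12 rose with signals of 5.08, 6.63, 7.31, 7.69 and 7.64 (slope 2.47, SE 0.55, adjusted p = 0.0398). Cyp2d34 read 5.32, 8.28, 8.89, 9.39 and 9.40, a 16.9-fold difference between the undiluted arrays (slope 3.71, SE 0.99, adjusted p = 0.061). For both genes the 75% mixture matched undiluted colon to within 0.05 log2. Cyp2d13, annotated as a transcribed pseudogene, rose with signals of 6.89, 6.83, 7.18, 7.41 and 7.53 (slope 0.75, SE 0.14, adjusted p = 0.0267), and its dimmer probe set also rose (slope 2.18). Cyp2d26 fell from 11.03 through 10.57, 10.15 and 9.87 to 9.24 (slope −1.72, SE 0.12, adjusted p = 0.00425). Cyp2d9, a steroid 16-alpha hydroxylase of male liver, went from 9.37 undiluted in whole mouse to 8.68 in colon (adjusted p = 0.0793). Cyp2d10 and Cyp2d22 stayed within 0.21 and 0.12 log2 over the 5 arrays.

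**Figure D2:**
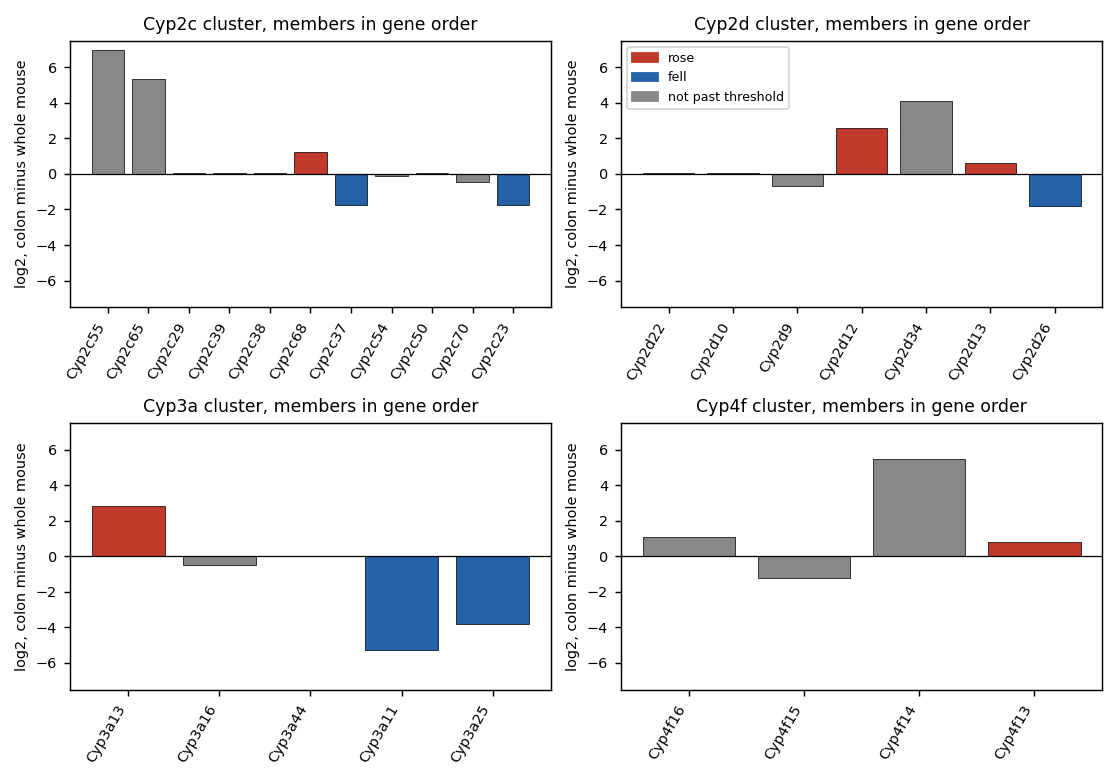
Difference between the undiluted arrays (log2, colon minus whole mouse, y axis) for the members of 4 P450 clusters, drawn in gene order with unmeasured genes left out and not to distance. Red bars rose, blue bars fell and grey bars did not pass. A cluster here means all genes of a subfamily on the same chromosome, whatever the distance. Bars above and below 0 stand in each panel, from 6.99 for Cyp2c55 to −5.26 for Cyp3a11.

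The clusters were read in the gene order of RefSeq (assembly GRCm38.p6). A cluster here means all genes of a subfamily on the same chromosome, with no limit on distance. A gene at an end of the order can therefore lie apart from the rest. In the 2c cluster the strongly colon-high Cyp2c55 and Cyp2c65 stood side by side at one end, and Cyp2c37, which fell, toward the other. In the 2d cluster Cyp2d12, Cyp2d34 and Cyp2d13, all higher in colon, followed each other among the members, with Cyp2d9 on one side and Cyp2d26 on the other, both higher in whole mouse. In the 3a order Cyp3a13 stood at one end and the adjacent Cyp3a11 and Cyp3a25, both of which fell, toward the other. The distance between Cyp3a13 and the other 3a genes was not examined. In the 4f cluster Cyp4f15, with 7.81 in whole mouse and 6.60 in colon, lay next to Cyp4f14, with 5.37 and 10.87.

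Among the subfamilies of family 2 with a single member, Cyp2e1, Cyp2f2 and Cyp2g1 fell and Cyp2s1 rose. Cyp2e1, which oxidises ethanol and other small molecules in liver, fell with signals of 11.22, 10.87, 10.43, 10.07 and 9.82 (slope −1.45, SE 0.11, adjusted p = 0.00447). Cyp2f2, the enzyme that activates naphthalene in the club cells of the lung, fell with signals of 10.01, 9.41, 8.82, 8.36 and 8.31 (slope −1.78, SE 0.22, adjusted p = 0.0105). The club cell gene Scgb1a1 and its relative Scgb3a2 fell as well (slopes −3.99 and −4.21). The summed signal of the 4 lung genes listed went from 13.5 to 8.65 log2, with Sftpc the brightest of them in whole mouse (12.97). The other lung genes listed, Sftpc and Sftpb, did not pass. Cyp2g1, an enzyme of the olfactory lining, fell with signals of 6.45, 6.15, 5.96, 5.85 and 5.68 (slope −0.73, SE 0.11, adjusted p = 0.0157), and of 2 measured olfactory genes neither passed, Adcy3 with 8.84 and 8.03 (slope −0.67, adjusted p = 0.0525) and Omp with 6.77 and 6.60 (adjusted p = 0.69). Cyp2s1, an enzyme of surface epithelia, rose with signals of 9.00, 10.24, 10.84, 11.09 and 11.27 (slope 2.16, SE 0.40, adjusted p = 0.0262). The part of these marker genes in the results was not tested, and in bulk RNA fewer cells of a type and less RNA per cell cannot be told apart.

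In subfamily 2b 2 of 4 members fell and none rose. Cyp2b19, an arachidonic acid epoxygenase of epidermal keratinocytes, fell with signals of 8.12, 7.94, 7.36, 7.12 and 6.30 (slope −1.78, SE 0.21, adjusted p = 0.00946). All 5 epidermis genes listed were higher in undiluted whole mouse, and 2 of them fell. Their summed signal went from 15.1 to 8.64 log2, and their part was not tested. Cyp2b9, a liver enzyme, fell with signals of 6.68, 6.20, 6.02, 5.72 and 5.81 (slope −0.89, SE 0.19, adjusted p = 0.0358). In Cyp2b10, the classical target of the receptor Nr1i3, the brightest probe set read 7.59 in whole mouse and between 6.96 and 7.03 on the other arrays without passing (adjusted p = 0.156). Its 2 dimmer probe sets both fell (slopes −0.78 and −1.30), but both are of the type marked as shared between transcripts. Their colon values, 4.77 and 4.87, lay within the range of the spike probe sets. Cyp2b13 read 6.36 and 6.28 (adjusted p = 0.996).

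Of the remaining family 2 genes none passed. Cyp2a12 read 7.40 in whole mouse and from 6.75 to 6.85 elsewhere (adjusted p = 0.2). Among the 4 genes of subfamily 2j, whose enzymes epoxidise arachidonic acid, Cyp2j6 read 5.90 in whole mouse and from 6.64 to 7.21 on the other arrays (adjusted p = 0.148), and Cyp2j5, known from kidney, 5.65 and 5.12 in the undiluted arrays (adjusted p = 0.0517, and 0.0498 without the 25% mixture). Cyp2j9 and Cyp2j13 differed by 0.11 and −0.22 log2, colon minus whole mouse.

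**Figure D3:**
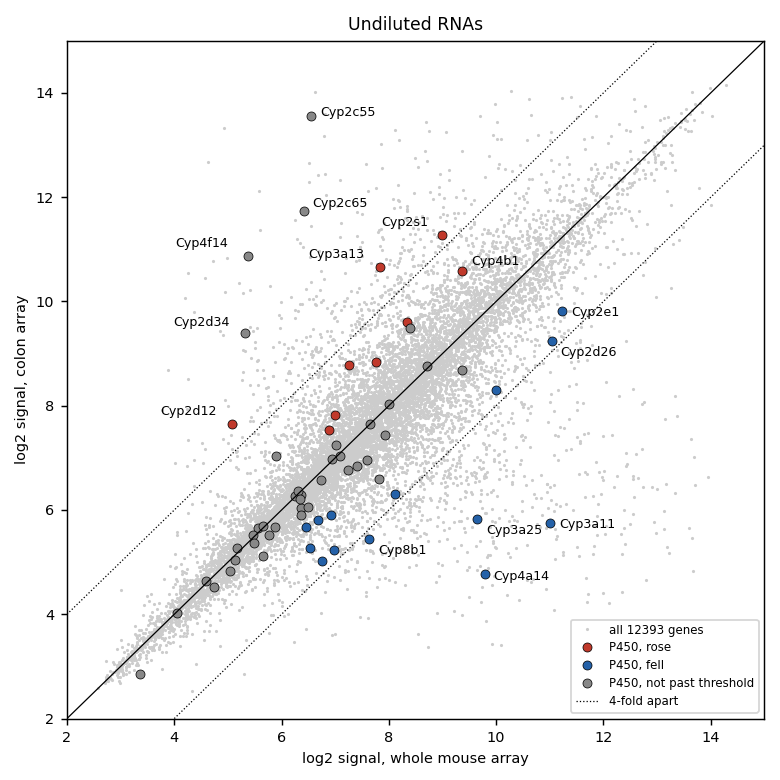
Log2 signal on the undiluted whole mouse array (x axis) against the undiluted colon array (y axis). Grey dots are all 12393 genes, large points the 63 P450 genes (red rose, blue fell, grey not past the threshold), the solid line equality and the dotted lines a 4-fold difference. 7 P450 genes lie above the upper dotted line, led by Cyp2c55, and 4 below the lower one.

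Family 3, which metabolises the widest range of drugs, had members that went opposite ways. Cyp3a13, known from the intestine, rose with signals of 7.83, 9.67, 10.11, 10.36 and 10.67 (slope 2.55, SE 0.57, adjusted p = 0.0401). Cyp3a11, a major P450 of adult mouse liver and a target of the receptor Nr1i2, fell with signals of 11.01, 10.19, 9.28, 8.17 and 5.75 (slope −5.02, SE 0.57, adjusted p = 0.00913), 38.3-fold between the undiluted arrays. Cyp3a25 fell with signals of 9.64, 9.47, 8.71, 7.93 and 5.82 (slope −3.68, SE 0.63, adjusted p = 0.0222). In both genes the largest step was from the 75% mixture to undiluted colon. Cyp3a44 stayed between 5.61 and 5.87, and Cyp3a16, known from the fetal liver, between 2.86 and 3.43 with no pass (adjusted p = 0.102), within the range of the spike probe sets.

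The hepatocyte genes had a summed signal of 16.0 log2 in whole mouse and 10.6 in colon, and 5 of the 10 fell. Albumin, the most abundant liver product in plasma, read 13.70 in whole mouse and 6.48 in colon without passing (adjusted p = 0.136 by limma). These levels stand beside the falls of Cyp2e1, Cyp3a11, Cyp3a25, Cyp2c37, Cyp4a14 and Cyp8b1, all known from liver. Other members known from liver did not pass, among them Cyp2d9 (9.37 in whole mouse and 8.68 in colon), Cyp1a2 (5.47 and 5.52) and Cyp2c29 (6.95 and 6.97). Cyp27a1, of the sterol and bile acid enzymes, went the other way and rose (7.77 in whole mouse and 8.84 in colon). The part of hepatocytes in the falls was not tested. Genes of the small intestine moved in the same way, with 3 of 5 falling, among them Lct (slope −4.46), while Fabp2 read 12.14 and 12.60.

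In family 1, whose members answer to the aryl hydrocarbon receptor, 1 of 3 genes fell. Cyp1b1, an enzyme of many tissues outside the liver that oxidises oestrogens, fell with signals of 6.91, 6.55, 6.10, 6.09 and 5.90 (slope −0.99, SE 0.17, adjusted p = 0.0222). Its 2 dimmer probe sets had slopes of 0.20 and 0.08 and did not pass, and with the mean of all 3 the fall did not pass either. Cyp1a1 stayed between 6.95 and 7.09 (adjusted p = 0.729) and Cyp1a2 between 5.24 and 5.52 (adjusted p = 0.871).

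Family 4 had 10 members, of which 2 rose and 1 fell. Cyp4f14, which inactivates leukotriene B4 by hydroxylating the end of its chain, read 5.37, 9.45, 10.37, 10.73 and 10.87, 45.2-fold between the undiluted arrays (slope 4.91, SE 1.40, adjusted p = 0.0701). Only its whole mouse value was low. Cyp4b1, an enzyme of lung and other epithelia, rose with signals of 9.36, 10.05, 10.34, 10.51 and 10.59 (slope 1.16, SE 0.23, adjusted p = 0.0301). Cyp4f13 rose with signals of 7.01, 7.52, 7.60, 7.78 and 7.82 (slope 0.76, SE 0.17, adjusted p = 0.0434). Cyp4f16 read 8.39 in whole mouse and from 9.28 to 9.63 elsewhere (adjusted p = 0.107), and its dimmer probe set rose (slope 1.03). That dimmer probe set is of a type that the array's design marks as able to bind other transcripts.

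Cyp4a14, a fatty acid hydroxylase that is switched on by Ppara in fasting liver, fell with signals of 9.79, 9.32, 8.83, 7.54 and 4.77 (slope −4.72, SE 0.87, adjusted p = 0.0257). Its colon value lay within the range of the spike probe sets, so the 32.4-fold difference between the undiluted arrays is inexact. The other 4a genes, Cyp4a12a and Cyp4a31, stayed between 4.42 and 5.13 and between 3.71 and 4.05. Cyp4f15 had its one high value, 7.81, in whole mouse, against 6.55 to 6.90 on the other arrays (adjusted p = 0.0643). Cyp4f18, the leukotriene hydroxylase of neutrophils, stayed between 5.51 and 5.78, and Cyp4v3, the mouse form of a gene tied to retinal crystal deposits, between 7.02 and 7.24.

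**Figure D4:**
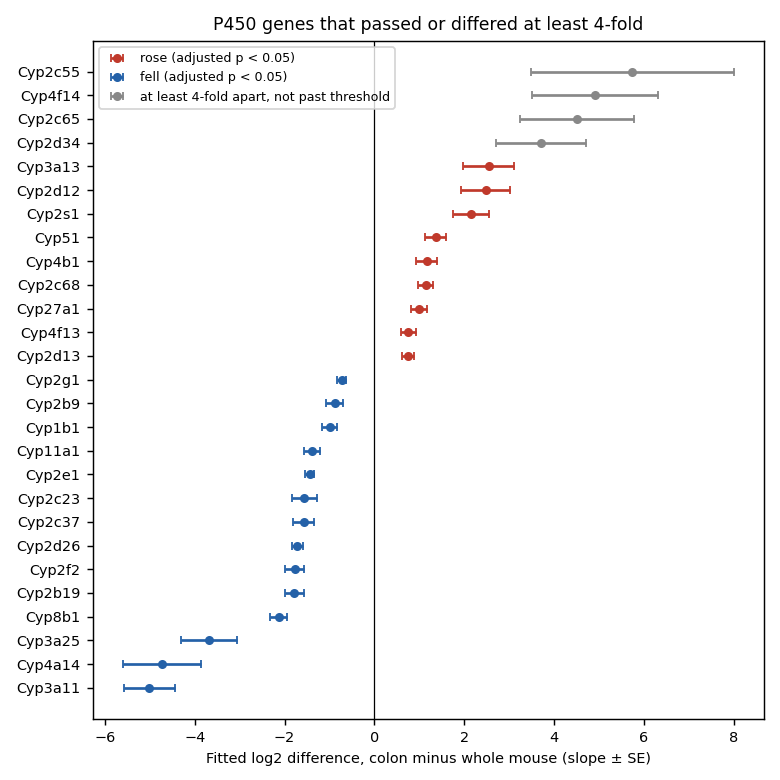
Slope, the log2 change fitted from 0% to 100% colon, with its standard error (x axis) for the 23 P450 genes that passed and the 4 that differed 4-fold or more undiluted without passing. Red points rose, blue points fell and grey points did not pass. The 4 grey genes have the 4 largest positive slopes, 3.71 to 5.74, and the widest errors on that side, 0.99 to 2.26.

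Enzymes of sterols and bile acids numbered 7, of which 2 rose and 1 fell. Cyp51, the demethylase of lanosterol in cholesterol synthesis, rose with signals of 7.26, 8.08, 8.33, 8.43 and 8.78 (slope 1.36, SE 0.24, adjusted p = 0.0237), while its 2 dimmer probe sets did not pass (slopes 0.68 and 0.07). Cyp27a1, the mitochondrial sterol 27-hydroxylase, rose with signals of 7.77, 8.37, 8.51, 8.72 and 8.84 (slope 1.00, SE 0.18, adjusted p = 0.0258). Cyp8b1, the sterol 12-alpha hydroxylase that directs bile acid synthesis to cholic acid, fell with signals of 7.64, 7.27, 6.64, 6.33 and 5.44 (slope −2.13, SE 0.18, adjusted p = 0.00574).

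The other enzymes of this group did not pass. Cyp7a1, the rate-limiting enzyme of the classical route, stayed between 4.75 and 5.05, within the range of the spike probe sets, also in whole mouse. Cyp7b1, of the alternative route, read 6.36, 5.99, 6.00, 5.79 and 5.91 (adjusted p = 0.136). The oxysterol hydroxylase Cyp39a1 stood at 7.65 on 3 arrays including both undiluted ones, with 7.85 at 25% and 7.39 at 75% colon (adjusted p = 0.574). Cyp46a1, the cholesterol 24-hydroxylase of brain, read 6.49, 6.06, 6.06, 6.03 and 6.06 (adjusted p = 0.248).

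Among 4 enzymes of steroid hormone synthesis 1 fell. Cyp11a1, which cuts the cholesterol side chain in the first step, fell with signals of 6.53, 6.41, 5.71, 5.43 and 5.28 (slope −1.39, SE 0.19, adjusted p = 0.0125). Cyp17a1, the 17-alpha hydroxylase, read 6.37, 6.19, 5.84, 6.10 and 6.03 (adjusted p = 0.355), and Cyp21a1, the adrenal 21-hydroxylase, 7.92, 7.57, 7.57, 7.54 and 7.45 (adjusted p = 0.116). Aldosterone synthase, Cyp11b2, stayed between 5.20 and 5.66. Of 4 measured marker genes of steroid-making cells, Hsd3b1 (slope −1.46) and the corticotropin receptor Mc2r (−0.71) fell, and Star and Nr5a1 did not pass; their part in the fall of Cyp11a1 was not tested.

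None of the 3 enzymes of vitamin metabolism passed by limma, and none had an unadjusted p under 0.05. Cyp24a1, which breaks down active vitamin D, read 5.88, 5.54, 5.11, 5.68 and 5.68 (adjusted p = 0.877). Cyp27b1, which makes active vitamin D in the kidney, stayed between 5.34 and 5.48 (adjusted p = 0.512). Cyp26a1, which breaks down retinoic acid, read 6.73, 6.53, 6.53, 6.65 and 6.58 (adjusted p = 0.759). All 3 genes were below the median probe set on every array, as were 26 of the 63 members.

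Mixtures were set against a weighted mean of the undiluted intensities. The expected signal of a mixture was computed from the 2 undiluted arrays on the linear scale. In all 7 members at least 4-fold higher in colon, the 25% mixture read above this expectation, by 0.27 to 1.38 log2 with a median of 0.49. Among all 414 genes with such a difference the median was 0.49, and 98.1% read above it. Cyp2c55 had the largest excess of the 7 at 25% colon (1.38) and 50% (0.76) but not at 75% (0.19, against 0.38 for Cyp2d12 and Cyp2d34), and its 25% mixture stood 66.3% of the way from whole mouse to colon intensity. Cyp2c65 deviated by 0.53 at 25% and −0.35 at 75%.

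Of the 4 members at least 4-fold higher in whole mouse, Cyp3a11 lay farthest from linear mixing. Cyp3a11 read below the expectation by −0.42, −0.77 and −0.95 log2 at 25%, 50% and 75% colon. Cyp3a25, its neighbour, deviated by 0.21, −0.03 and 0.01, Cyp4a14 by −0.07, 0.00 and −0.37, and Cyp8b1 by −0.05, −0.28 and −0.03. Among all 542 genes at least 4-fold higher in whole mouse the medians were −0.13, −0.25 and −0.24. Cyp2f2, under the 4-fold limit at 3.25-fold and chosen after its values were seen, deviated by −0.57 and −0.59 log2 at 50% and 75% colon, and at 75% it stood at 98.4% of the way to the colon intensity.

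**Figure D5:**
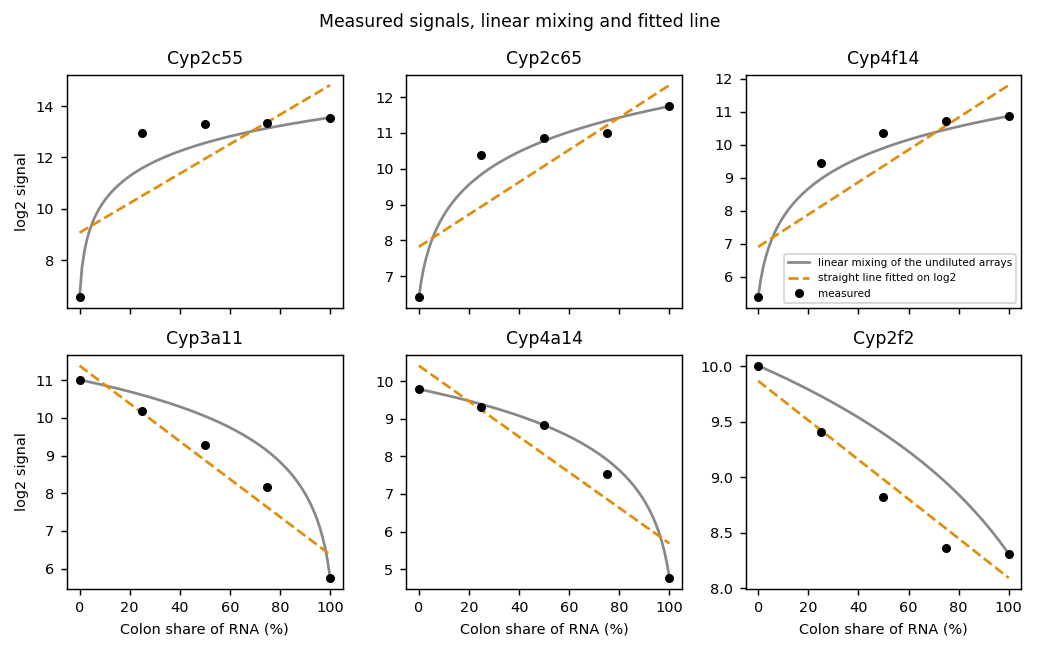
Measured log2 signals (points) of 6 P450 genes against the colon share of RNA in %, with the curve expected from linear mixing of the undiluted intensities (grey) and the straight line fitted on the log2 scale (dashed). Each panel has its own y axis. Cyp2c55 lies 1.38 log2 above the grey curve at 25% colon, and Cyp3a11 deviates from it by −0.95 log2 at 75%.

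Members far apart passed more often than the rest, 7 of the 11 that were at least 4-fold apart and 16 of the other 52, as did all genes (77.5% and 19.9%). Of the 7 members at least 4-fold higher in colon, 3 passed (Cyp2d12, Cyp2s1 and Cyp3a13), and all 4 at least 4-fold higher in whole mouse passed (Cyp3a11, Cyp3a25, Cyp4a14 and Cyp8b1). Among all genes with such a difference, 57.5% of those higher in colon and 92.8% of those higher in whole mouse passed. When linear intensity was regressed on the colon share instead, Cyp2c65, Cyp2d34 and Cyp4f14 passed (adjusted p = 0.0305, 0.0325 and 0.0232 by limma), and Cyp1b1, Cyp2b9, Cyp2c37, Cyp2f2 and Cyp4f13 did not. The same 3 genes passed when the arrays were centred on their medians (adjusted p = 0.0414, 0.0352 and 0.0422). Cyp2c55 passed in neither.

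Genes that work with P450 enzymes were read from lists, whose counts stand beside 9.8% of all genes that rose and 14.5% that fell. Of 7 electron donors listed 5 were measured, and the P450 reductase Por and the ferredoxin reductase Fdxr were not. Among the 5, Cyb5b, the outer mitochondrial cytochrome b5, rose (slope 1.15, SE 0.19, adjusted p = 0.0209) and none fell. The cytochrome b5 reductase Cyb5r3 read 12.26 and 12.08 (adjusted p = 0.436). Of 12 receptors and factors that set P450 expression, 3 rose and none fell, namely Hnf4a (slope 2.28, adjusted p = 0.0476), a regulator of liver and gut epithelium, the bile acid receptor Nr1h4 (1.69, adjusted p = 0.0286) and the xenobiotic receptor Nr1i2 (1.27, adjusted p = 0.0415). The vitamin D receptor Vdr had 7.19 in whole mouse against 10.54 in colon (adjusted p = 0.0525). The prostacyclin synthase Ptgis, a P450 without the Cyp symbol, fell (slope −1.48, adjusted p = 0.0252), and the thromboxane synthase Tbxas1 read 6.84 and 6.73.

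Pathway genes around the members gave mixed counts, to be read beside 9.8% of all genes that rose and 14.5% that fell. Of 15 measured genes of cholesterol synthesis, the pathway of Cyp51, 5 rose and none fell, with Sc5d (slope 1.40) and Nsdhl (1.06) the largest of those that passed. Msmo1 had the largest slope of the list, 2.28, with 7.18 and 10.01 undiluted, and did not pass (adjusted p = 0.0717), and Hmgcs1 read 11.06 and 11.54 (adjusted p = 0.457). The median slope of that list was 0.81, against −0.01 for all genes. Of 9 genes of bile acid synthesis and transport, 4 fell and 1 rose, with the hepatic uptake carrier Slc10a1 (−3.28) and the bile acid ligase Slc27a5 (−2.65) the largest of those that passed, and Hsd3b7 at 10.03 and 9.74 (adjusted p = 0.279). Of 10 genes of the retinoic acid pathway, 4 fell and 1 rose, led by the binding proteins Crabp2 (−2.55) and Crabp1 (−2.22), with the retinal dehydrogenase Aldh1a1 at 8.19 and 11.92 (adjusted p = 0.0705). Of 5 genes of steroid hormone synthesis, Hsd3b1 fell and Star read 6.54 and 6.78. Of 8 eicosanoid genes, 1 rose and 2 fell, with the phospholipase Pla2g4a (2.10) and the lipoxygenase Alox12 (−1.16) the largest of those that passed in each direction and Ephx1 at 8.95 and 9.47 (adjusted p = 0.0525).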

How the data were processed

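Total RNA of whole newborn mice, of adult colon and of 3 mixtures was hybridised to 5 Affymetrix MOE430 arrays, 1 per mix. The deposited values are log2 signals that the authors made with RMA, per the submitters' processing notes; no source used here states its version. RMA gives no detection calls, and as usually run it sets all arrays to a common distribution, which can shrink a change shared by most genes. Of 22690 probe sets, 64 controls were left out. Of the other 22626, GEO's platform annotation gave 20380 a single gene, 691 several and 1555 none.

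Each probe set's signal was fitted as a straight line in the colon share (0 to 1) with limma 3.58.1 in R 4.3.3 (lmFit and eBayes, 3 residual degrees of freedom), with Benjamini-Hochberg adjustment over all 22626 probe sets and a threshold of 0.05. No pseudocount was added. The fit was tested on simulated lines that were straight on the log2 scale. With 200 probe sets changed it called 25.4% of slopes of size 1 and 95.6% of slopes of size 4. With 4000 changed it called 78.2% and 99.1%. Signals of a dilution curve on that scale, so the simulation cannot show how the fit treats curved members such as Cyp2c55. The members and lists were chosen with earlier results of these data known. All 63 members were described, with values in every array for those that passed or differed at least 4-fold between the undiluted arrays. Precision is limited by the number of arrays. Alternatives were centring, linear intensity, an intensity trend, a filter on dim probe sets, the mean of a gene's probe sets, probe sets without suffix and leaving out each array. Promoter sequences, gene order and biotypes came from RefSeq tables (GRCm38.p6), in which all 63 members matched.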

Additional observations from a re-analysis of the deposited data

How the results depend on the processing

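Against 9 members that rose and 14 that fell, the counts were 12 and 14 with centred arrays (15.6% and 13.7% of all genes), 11 and 10 on linear intensity (8.55% and 10.9%), 9 and 14 with an intensity trend (9.63% and 14.3%), 11 and 14 with the mean of a gene's probe sets (12.4% and 14.7%), and 9 and 12 of 58 members with probe sets without suffix (9.66% and 13.3%). Dropping probe sets under the median mean signal left 30 members, of which 10 rose and 8 fell (19.1% and 21.2% of all genes kept). Leaving out an array gave 0 to 4 that rose and 5 to 10 that fell, and a median slope from −0.28 to 0.0087, against −0.07. No member that passed changed sign under any of these alternatives. Of the 23, 23 passed with centred arrays, 18 on linear intensity and 22 with the mean of probe sets, which lost Cyp1b1. Cyp2b10 passed only with that mean (adjusted p = 0.0176, limma), which includes its dimmer probe sets of the shared type. Cyp4f15 passed only with the filter (adjusted p = 0.0459, limma). Over all probe sets, 1953 rose and 2456 fell, 3148 and 2325 with centred arrays, and 997 to 2998 were called in all when an array was left out, against 4409. No paired analysis was possible because each mix had 1 array, so no pairs of samples exist. Signal near background limits the 6 members within the spike range on all arrays. It also limits members with an undiluted value in that range, among them Cyp2c23, Cyp2d12 and Cyp4a14.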

Other observations

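A further 4 probe sets are annotated to several genes at once, P450 genes among them, and were left unnamed. Of these, 3 fell, with slopes of −2.62, −2.004 and −4.67 (adjusted p = 0.00583, 0.00917 and 0.0245 by limma), and 1 did not pass (slope 1.45, adjusted p = 0.0648). Of the 63 members, 25 (39.7%) had signals in strict order of the colon share, as had 20.7% of all genes, and 26 (41.3%) lay under the array median on all 5 arrays, as did 31.4% of all genes. Of those 26, 4 passed (15.4%), namely Cyp11a1, Cyp2b9, Cyp2c23 and Cyp2g1, as did 258 of the 3897 such genes in all (6.62%).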
